A study of Mus musculus with 21 samples.

Results

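The genes described here are Afp, Alb, Apoa1, Apoa2, Apob, Apoe, Ttr, Rbp4, Trf and Foxa2, 10 genes known from hepatoblasts and the visceral endoderm and chosen by name. Each matched 1 row by its symbol, so 10 of 27968 genes were followed in the sorted cells and 10 of 22899 in the coculture. All but Foxa2 code for secreted proteins, and Foxa2 codes for a nuclear factor that is not secreted.

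The study set out to make blood cells from mouse pluripotent stem cells in vitro and compared them with blood stem cells of the mouse, in 21 RNA-seq libraries with 3 replicates in each of 7 groups. Colonies of 6 to 8 days from a 3D peptide scaffold were moved onto OP9 cells, a mouse stromal line kept from dividing with mitomycin C, or onto 0.1% gelatin alone, and the coculture medium held SCF, IL-3 and Flt3 ligand. 3D+OP9 and 3D+0.1% gelatin are total cells of day 5 from 129/ola stem cells, and the sources used here do not say whether OP9 cells were removed. The other 5 groups were sorted cells: mESC (129/ola embryonic stem cells kept on fibroblast feeders and sorted on SSEA-1), D5-LSKCD201+ and D5-LSKCD201- (129/ola cells from day 5 of 3D+OP9, with and without the surface receptor CD201), FL-LSKCD201+ (fetal liver of C57BL/6 embryos at E12.5) and BM-LSKCD201+ (bone marrow of C57BL/6 mice aged 6 to 8 weeks). The labels name no deletion or transgene in any group. The labels give 129/ola for every in vitro library, while the study's methods name embryonic stem cells of both strains. By the labels, in vitro and in vivo cells differed in strain as well as in origin, and the effects of strain and origin cannot be told apart. LSK stands for lineage-negative, Sca-1+ and c-kit+, a gate that leaves out cells with markers of mature blood lineages. The antibodies listed for sorting were against c-kit, Lineage and CD201.

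Hepatoblasts are the precursors of liver cells in the fetal liver, and the visceral endoderm is the outer layer of the early embryo and yolk sac that nourishes the embryo before the liver forms. Both secrete the same carriers of fatty acids, lipids, retinol, thyroid hormone and iron, and both use FOXA, HNF1 and HNF4 factors to switch these genes on. Blood stem cells expand in the fetal liver before birth, so that blood cells and hepatoblasts lie side by side in that organ.

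The DNA just before the start sites of Afp, Alb, Apoa1 and Apoa2 is shown because the differences of fetal liver from the other groups turn on these genes. The sequences are RefSeq's for GRCm38.p6, on the plus strand from 5′ to 3′, and cover the 250 bases before each start, except that Apoa1 is cut to 200 bases so that it ends before the start of the gene in GENCODE M21. Afp lies at chr5:90490464-90490713, Alb at chr5:90460620-90460869, Apoa1 at chr9:46228380-46228579 and Apoa2 at chr1:171224804-171225053. Capitals mark letters that matched 1 of 6 short motifs (HNF1, FOXA, HNF4, GATA, TATA box and C/EBP) on either strand, each spelled out below.
Afp: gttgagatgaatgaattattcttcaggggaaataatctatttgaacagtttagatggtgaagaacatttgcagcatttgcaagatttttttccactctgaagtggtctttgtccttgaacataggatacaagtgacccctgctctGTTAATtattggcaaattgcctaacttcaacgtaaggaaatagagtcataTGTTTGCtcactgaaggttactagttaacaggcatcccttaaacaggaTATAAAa
Alb: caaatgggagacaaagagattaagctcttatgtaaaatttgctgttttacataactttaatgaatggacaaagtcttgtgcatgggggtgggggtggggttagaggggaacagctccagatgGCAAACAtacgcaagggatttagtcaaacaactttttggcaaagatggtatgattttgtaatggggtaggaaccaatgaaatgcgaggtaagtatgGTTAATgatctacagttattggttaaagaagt
Apoa1: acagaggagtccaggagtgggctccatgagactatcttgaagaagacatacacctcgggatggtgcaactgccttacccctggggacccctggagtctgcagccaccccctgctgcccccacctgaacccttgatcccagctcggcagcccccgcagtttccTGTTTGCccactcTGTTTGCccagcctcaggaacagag
Apoa2: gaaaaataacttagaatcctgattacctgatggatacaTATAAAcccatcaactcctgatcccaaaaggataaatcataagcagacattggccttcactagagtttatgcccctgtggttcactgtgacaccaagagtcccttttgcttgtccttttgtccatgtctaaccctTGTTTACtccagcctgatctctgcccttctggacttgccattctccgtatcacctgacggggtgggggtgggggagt

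The same letters were searched in windows of this kind for 8 of the 10 genes. Ttr was left out of the search and Trf had no window, so the counts below do not cover Ttr or Trf. FOXA letters, searched as TGTTTNC, were in 6 of the 8 windows (Afp, Alb, Apoa1, Apoa2, Apob and Rbp4) and in 17.84% of 32851 RefSeq windows of equal length. HNF1 letters, searched as GTTAAT, were in the windows of Afp and Alb and in 6.43% of all windows. TATA box letters, searched as TATAAA, were in Afp, Apoa2 and Apob and in 12.37% of all windows. The HNF4 motif, searched as CAAAGTCCA, was in none of the 8 and in 0.38% of all windows. The GATA motif, searched as AGATAA, was in none of the 8 and in 9.99% of all windows. The C/EBP motif, searched as TTGCGCAA, was in none of the 8 and in 0.16% of all windows. The windows of Apoe and Foxa2 held none of the 6 motifs. Positions count back from the RefSeq start, which for Apoa1 lies 50 bases after the end of the printed sequence. In Afp the FOXA letters ran from base -55 to -49 before the start, in Apoa2 from -77 to -71, and Apoa1 had them at -88 to -82 and again at -75 to -69. In Alb they were on the minus strand, from -128 to -122, and the HNF1 letters were at -32 to -27. These matches describe the letters only and are not measured binding sites.

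In the annotation (GENCODE M21, GRCm38), Alb (chr5:90460897-90476602) and Afp (chr5:90490737-90508907) are neighbours on the plus strand. The first base of Afp lies 14135 positions after the last base of Alb. Apoa1 lies at chr9:46228580-46230466, Apoa2 at chr1:171225054-171226379 and Apob at chr12:7977648-8016835. Apoe lies at chr7:19696109-19699188, Rbp4 at chr19:38116629-38125281, Ttr at chr18:20665280-20674321, Trf at chr9:103204001-103230444 and Foxa2 at chr2:148042877-148046969. The deposited sorted-cell table gives Ttr 1 locus together with Dsg2 and Gm16090, and Trf 1 locus together with Srprb and Gm20425. Whether the counting used strand is not given in the sources used here, so the levels of Ttr and Trf are uncertain to the extent that reads of those neighbours were assigned to them.

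Expression was read as FPKM, reads scaled by gene length and library size, and the values summed to between 508622 and 620332 in the sorted libraries and between 483263 and 508307 in the coculture libraries. The number of reads is unknown. Differences were tested on log2(FPKM + 1), which understates fold changes of low genes, for genes whose mean over the compared libraries reached 0.5 FPKM. A gene was called when its adjusted p was under 0.05 (limma, Benjamini-Hochberg over all genes tested) and its log2 fold change was 1 or more in size. The study calls the replicates of the sorted groups biological, but the labels do not say that they came from separate cultures or animals, so the p-values measure the spread between these libraries, and an exact permutation test of 3 against 3 libraries could not go below 0.1. Within a group, FL-LSKCD201+ replicate 1 (r with the others 0.979 and 0.981 across genes, against 0.998 between replicates 2 and 3), BM-LSKCD201+ replicate 1, D5-LSKCD201- replicate 2 and 3D+OP9 replicate 3 stood apart from their group.

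By group mean, Afp, Alb, Apoa1, Apoa2, Ttr, Rbp4 and Trf were highest in FL-LSKCD201+. Apoe was highest in D5-LSKCD201+, and Apob and Foxa2 were highest in D5-LSKCD201-. FL-LSKCD201+ had 8 of the 10 at 1 FPKM or more in every replicate, D5-LSKCD201- had 6 or 7, D5-LSKCD201+ 3 or 4, BM-LSKCD201+ 3 and mESC 2 or 3. All 10 genes summed to 1086 to 1490 FPKM in FL-LSKCD201+ and 1180 to 1241 in D5-LSKCD201+, so the sums of FL-LSKCD201+ and D5-LSKCD201+ overlapped. Without Apoe, which was abundant in every library, the sum was 531 to 783 FPKM in FL-LSKCD201+ and 94.4 to 102 in BM-LSKCD201+. D5-LSKCD201- (44.5 to 52.4), D5-LSKCD201+ (45.6 to 53.0) and mESC (6.92 to 8.67) were lower. Without Apoe, the sums of both day 5 groups overlapped, but they were made of different genes: Rbp4 and Foxa2 made up most of that of D5-LSKCD201-, and Trf most of that of D5-LSKCD201+. In bulk RNA, fewer cells of a type and less RNA per cell cannot be told apart.

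**Figure D1:**
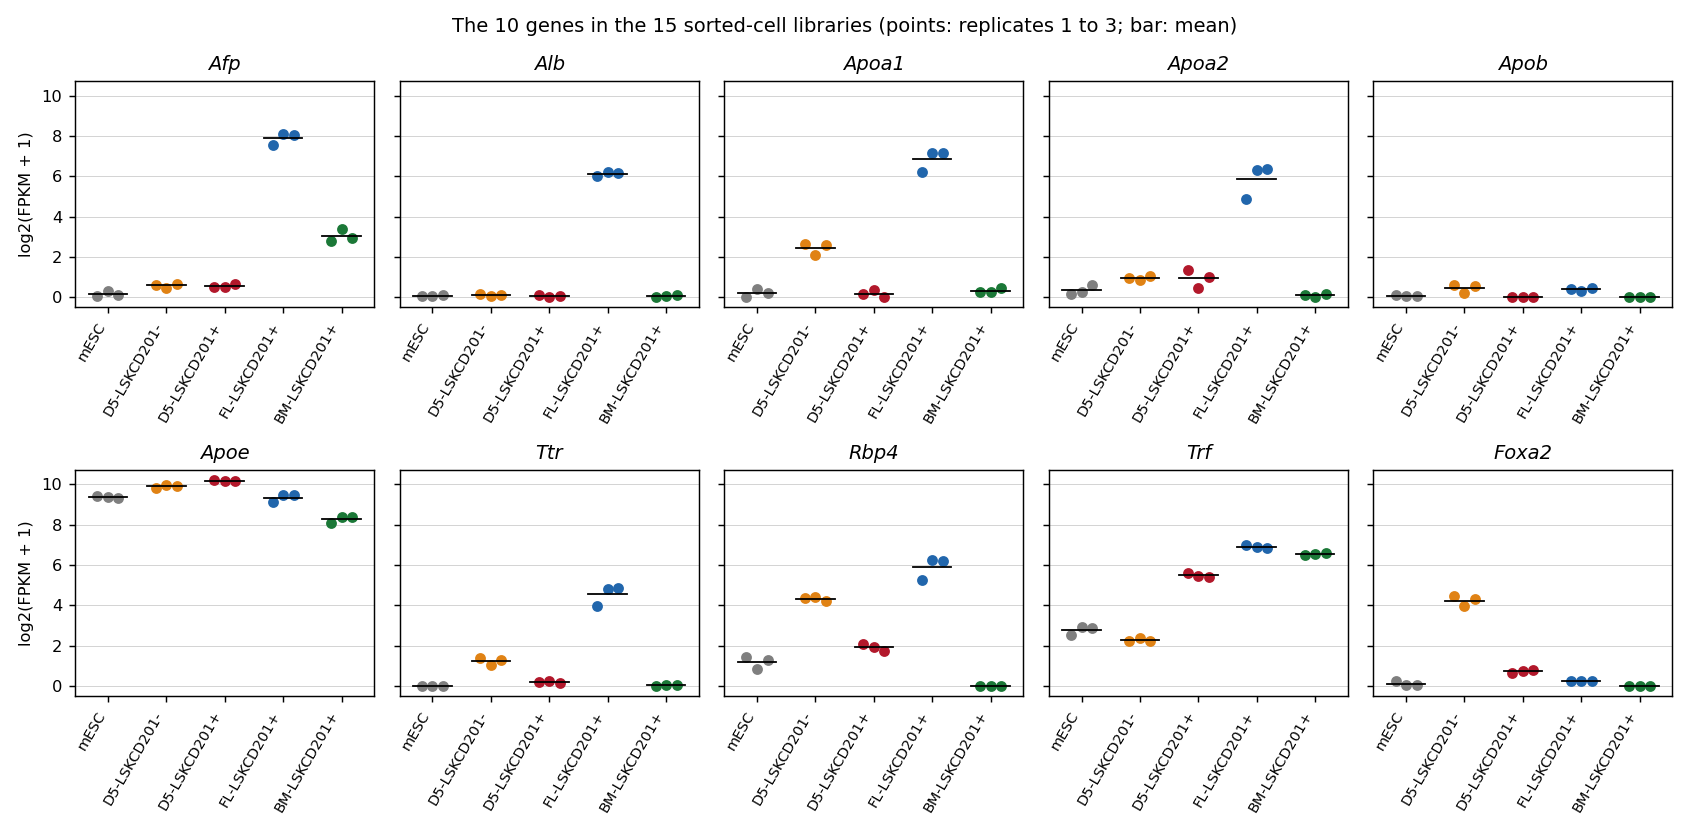
Level of each of the 10 genes, log2(FPKM + 1) on the vertical axis, in the 15 sorted-cell libraries by group. Points are replicates 1 to 3 from left to right and the bar is their mean. Afp, Alb, Apoa1, Apoa2, Ttr and Rbp4 are highest in FL-LSKCD201+, Foxa2 is highest in D5-LSKCD201-, and Apoe is high in all groups.

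Afp (alpha-fetoprotein, the main serum protein of the fetus) and Alb (albumin, the main serum protein of the adult) carry fatty acids and other small molecules in blood. Afp was at 188, 271 and 261 FPKM in FL-LSKCD201+ replicates 1, 2 and 3 and ranked between 355 and 426 among all genes. In BM-LSKCD201+ it was at 5.88, 9.50 and 6.52 FPKM. Every other sorted library was under 1 FPKM: D5-LSKCD201+ had 0.406, 0.428 and 0.552, D5-LSKCD201- had 0.520, 0.381 and 0.581, and mESC had 0.0279, 0.229 and 0.0812. FL-LSKCD201+ and BM-LSKCD201+ did not overlap with each other or with any other group, and both day 5 groups overlapped. Alb was at 63.0, 73.7 and 69.7 FPKM in FL-LSKCD201+ and at most 0.0982 FPKM in the other 12 sorted libraries, 2 of which listed it at 0. Alb was therefore near 0 in bone marrow, where Afp was not. In FL-LSKCD201+ Afp was 2.98, 3.67 and 3.75 times Alb on the FPKM scale.

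Apoa1 and Apoa2 code for the main proteins of high-density lipoprotein. Apoa1 was at 73.1, 142 and 141 FPKM in FL-LSKCD201+ and at 5.18, 3.27 and 4.95 FPKM in D5-LSKCD201-. It was at most 0.352 FPKM in D5-LSKCD201+ (0.101, 0.295 and 0), mESC (0, 0.315 and 0.148) and BM-LSKCD201+ (0.187, 0.200 and 0.352). Among the sorted groups, FL-LSKCD201+ and D5-LSKCD201- thus had Apoa1 above 1 FPKM, and neither overlapped with another sorted group. Apoa2 was at 28.0, 78.9 and 81.7 FPKM in FL-LSKCD201+, and replicate 1 was clearly below the other two. Day 5 cells had about 1 FPKM of Apoa2, with D5-LSKCD201+ at 1.52, 0.370 and 1.02 and D5-LSKCD201- at 0.934, 0.785 and 1.08, and these groups overlapped. mESC had 0.109, 0.208 and 0.496 FPKM of Apoa2 and BM-LSKCD201+ 0.0933, 0 and 0.0998.

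Apob is the scaffold protein of very-low- and low-density lipoprotein, and Apoe carries lipid remnants to their receptors. Apob stayed at or under 0.523 FPKM in all 15 sorted libraries and did not reach the mean needed for a test in any of the 6 sorted-cell comparisons. Its highest values were in D5-LSKCD201- (0.523, 0.168 and 0.473) and FL-LSKCD201+ (0.344, 0.241 and 0.388), which overlapped. It was at most 0.0602 in mESC, and D5-LSKCD201+ and BM-LSKCD201+ had no value above 0.0150. FL-LSKCD201+ therefore held little Apob RNA beside its Apoa1 and Apoa2.

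Apoe was the most abundant of the 10 genes in every sorted library. It was at 1188, 1132 and 1159 FPKM in D5-LSKCD201+, where it ranked 33 or 34 among all genes, and at 893, 1013 and 960 in D5-LSKCD201-. FL-LSKCD201+ had 555, 708 and 700 FPKM, mESC 683, 669 and 643, and BM-LSKCD201+ 267, 329 and 327. FL-LSKCD201+ and mESC overlapped and the other neighbours in this order did not. Unlike Afp or Alb, Apoe is widely expressed outside the liver, in macrophages among other cells.

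Ttr (transthyretin) carries thyroxine and binds Rbp4, the retinol carrier of plasma, so that both travel together. Ttr was at 14.4, 26.6 and 28.3 FPKM in FL-LSKCD201+ and at 1.61, 1.06 and 1.40 in D5-LSKCD201-. It was at 0.133, 0.196 and 0.0907 in D5-LSKCD201+, at most 0.0376 in BM-LSKCD201+ and listed at 0 in all 3 mESC libraries. Rbp4 had the same order of the highest groups at a higher level. It was at 36.7, 74.1 and 71.6 FPKM in FL-LSKCD201+, then D5-LSKCD201- with 19.2, 20.2 and 17.2, D5-LSKCD201+ with 3.22, 2.79 and 2.30, and 1.74, 0.765 and 1.42 in mESC. In all 3 BM-LSKCD201+ libraries Rbp4 was listed at 0. No neighbours in the order of Rbp4 overlapped.

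Trf (transferrin, the iron carrier of plasma) went another way. It was at 128, 116 and 113 FPKM in FL-LSKCD201+, followed by BM-LSKCD201+ with 88.3, 91.7 and 94.7 and D5-LSKCD201+ with 47.0, 43.2 and 40.8. In mESC it was at 4.77, 6.47 and 6.39 and in D5-LSKCD201- at 3.62, 4.25 and 3.69. The 3 groups sorted for CD201 were thus above both groups that were not, with no overlap between any groups. Foxa2, the factor that opens endoderm and liver genes, was at 20.6, 14.4 and 18.7 FPKM in D5-LSKCD201- and under 1 FPKM elsewhere. D5-LSKCD201+ had 0.531, 0.684 and 0.752 FPKM, FL-LSKCD201+ 0.191, 0.160 and 0.182, mESC 0.165, 0.0281 and 0.0282, and BM-LSKCD201+ listed it at 0 in all 3 libraries. FL-LSKCD201+ libraries therefore combined the highest Afp, Alb and Apoa1 with Foxa2 of at most 0.191 FPKM.

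The question whether CD201 separates day 5 cells that differ in these genes was tested between D5-LSKCD201+ and D5-LSKCD201-. Of the 7 genes tested, Trf was higher in D5-LSKCD201+, and Foxa2, Rbp4, Apoa1 and Ttr were lower. Of all 13691 genes tested, 10.8% were called higher and 13.9% lower, 24.7% in all. Trf differed by a log2 fold change of 3.20 (SE 0.09, limma adjusted p 2.2e-07), from means of 43.7 ± 3.11 and 3.86 ± 0.345 FPKM (SD, n = 3). Foxa2 fell by 3.50 on the log2 scale (SE 0.14, limma adjusted p 1.2e-06) and Rbp4 by 2.40 (SE 0.12, limma adjusted p 2.6e-06). In all 3 genes the replicates of D5-LSKCD201+ and D5-LSKCD201- did not overlap, which held for 73.6% of all genes tested.

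Apoa1 was lower in D5-LSKCD201+ by 2.26 (SE 0.17, limma adjusted p 2.3e-05) and Ttr by 1.04 (SE 0.11, limma adjusted p 0.000111). Apoa1 and Ttr passed the filter only through D5-LSKCD201-, the group where they are high, so that they had to differ. Ttr was close to the fold threshold and was not called after quantile normalization (log2 fold change -0.73) or without D5-LSKCD201- replicate 1 (-0.97), and not tested at a filter of 1 FPKM. Apoe differed by 0.28 (limma adjusted p 0.00539), under the fold threshold, and Apoa2 by -0.01 (SE 0.21, limma adjusted p 0.961). Afp, Alb and Apob were too low for a test.

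Against mESC, the starting cells, the day 5 groups gave different lists. Both comparisons share the mESC libraries. In D5-LSKCD201-, Foxa2, Rbp4, Apoa1 and Ttr were called higher of 7 genes tested, all without overlap, where 14.3% of all genes were called (64.4% did not overlap), 10.9% of 13596 genes were called higher and 3.48% lower. Foxa2 rose by a log2 fold change of 4.13 (SE 0.15, limma adjusted p 1.4e-06), Rbp4 by 3.13 (SE 0.17, limma adjusted p 7.7e-06) and Apoa1 by 2.23 (SE 0.17, limma adjusted p 4.4e-05). Ttr was listed at 0 in all mESC libraries and was called higher (limma adjusted p 7.3e-05), but not after quantile normalization, and it fell below the filter without D5-LSKCD201- replicate 1 or at a filter of 1 FPKM. Foxa2, Apoa1, Ttr and Apoa2 passed the filter only through D5-LSKCD201-, and of the 3 genes that passed in both groups Rbp4 was called. Apoa2 (0.61), Apoe (0.52) and Trf (-0.49) had limma adjusted p of 0.00602, 0.00038 and 0.0155, with differences under the fold threshold.

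In D5-LSKCD201+ against mESC, Trf was the only gene called of 4 tested, where 37.6% of all genes were called (86.1% did not overlap), 19.5% of 13441 genes were called higher and 18.1% lower. It rose by a log2 fold change of 2.71 (SE 0.10, limma adjusted p 1.5e-08). Apoe (0.80, limma adjusted p 3.2e-08), Rbp4 (0.73, limma adjusted p 0.00262) and Apoa2 (0.60, limma adjusted p 0.0243) were above mESC by less than the fold threshold, and Apoa2 passed the filter only through D5-LSKCD201+. The mean of Apoa2 rested on D5-LSKCD201+ replicates 1 and 3, since replicate 2 was within the range of mESC. Afp, Alb, Apoa1, Apob, Ttr and Foxa2 were too low in D5-LSKCD201+ and mESC to be tested.

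**Figure D2:**
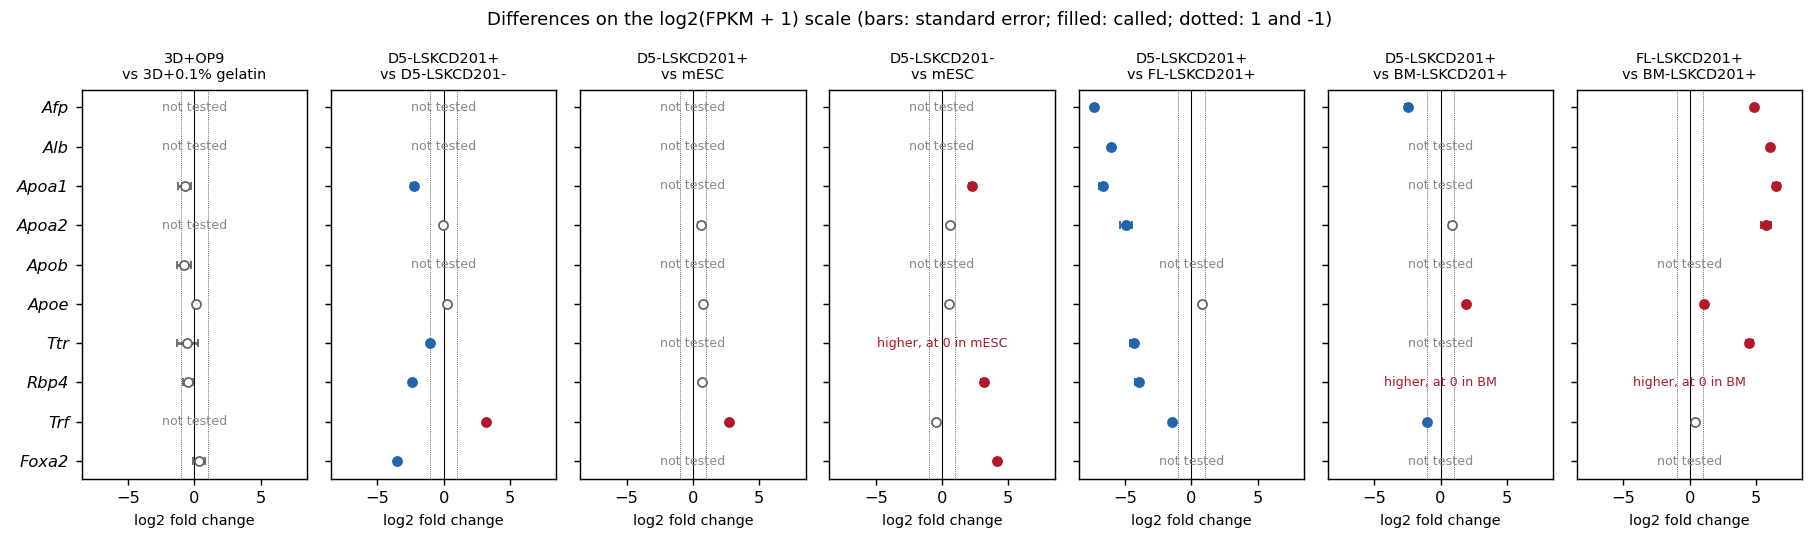
Difference of each of the 10 genes in the 7 comparisons, as the log2 fold change of FPKM + 1 on the horizontal axis with its standard error. Filled points were called, red higher and blue lower in the first group, open points were not called, and dotted lines mark 1 and -1. Genes listed at 0 in a whole group are given in words without a fold. Most members fall left of 0 in D5-LSKCD201+ against FL-LSKCD201+ and right of 0 in FL-LSKCD201+ against BM-LSKCD201+.

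The comparison of D5-LSKCD201+ with CD201+ cells of fetal liver asked whether these hepatoblast and endoderm genes differed. It does not measure how close the cells made in vitro were to fetal blood stem cells. Of 8 genes tested, 7 were lower in D5-LSKCD201+ and none higher, where 34.7% of all genes were called (76.6% did not overlap), 19.6% of 13627 genes were called lower and 15.1% higher. Afp fell by 7.35 on the log2 scale (SE 0.15, limma adjusted p 7.3e-08), and Alb fell by 6.08 (SE 0.09). Apoa1 had a log2 fold change of -6.67 (SE 0.27). Apoa2 was at -4.91 (SE 0.44), Ttr at -4.35 (SE 0.24), Rbp4 at -3.98 (SE 0.27) and Trf at -1.43 (SE 0.08). The largest limma adjusted p among these 7 genes was that of Apoa2, 5.7e-05. Afp, Alb, Apoa1 and Ttr passed the filter only through FL-LSKCD201+ and had to differ, and of the 4 genes that passed in both groups Apoa2, Rbp4 and Trf were called. Apoe was the exception in direction: it was higher in D5-LSKCD201+ by 0.83 (SE 0.12, limma adjusted p 0.000655), under the fold threshold, and was called at 1.08 after quantile normalization. Apob and Foxa2 were too low to be tested.

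Against adult bone marrow, with the same D5-LSKCD201+ libraries, 2 genes were higher and 2 lower of 5 tested, where 44.7% of all genes were called (85.3% did not overlap), 17.5% of 13775 genes were called higher and 27.2% lower. Apoe was higher by a log2 fold change of 1.92 (SE 0.09, limma adjusted p 5.0e-07). Rbp4 was higher (limma adjusted p 1.8e-06) and was listed at 0 in bone marrow. Afp fell by 2.48 (SE 0.16, limma adjusted p 4.0e-06) and Trf by 1.05 (SE 0.06, limma adjusted p 2.3e-06). Afp passed only through BM-LSKCD201+, and Rbp4 and Apoa2 only through D5-LSKCD201+. Apoa2 was at 0.85 (limma adjusted p 0.00681), and without D5-LSKCD201+ replicate 2 it was called at 1.09.

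FL-LSKCD201+ and BM-LSKCD201+ were compared as the fetal and adult source of the same sorted population. Of 8 genes tested, 7 were higher in FL-LSKCD201+, where 19.1% of all genes were called (63.5% did not overlap), 7.78% of 13503 genes were called higher and 11.3% lower. Alb was higher by a log2 fold change of 6.06 (SE 0.11, limma adjusted p 3.0e-07), Apoa1 by 6.52 (SE 0.25), Apoa2 by 5.76 (SE 0.38), Afp by 4.86 (SE 0.20) and Ttr by 4.50 (SE 0.24). Rbp4 was called higher and was listed at 0 in bone marrow. Alb, Apoa1, Apoa2, Ttr and Rbp4 passed the filter only through FL-LSKCD201+ and had to differ. Afp and Apoe, which passed in both groups, were called as well.

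Apoe was higher in fetal liver by 1.08 (SE 0.15, limma adjusted p 0.000676), and without BM-LSKCD201+ replicate 1 it was at 0.98 and not called. Trf differed by 0.37 (SE 0.09, limma adjusted p 0.00876), under the fold threshold, with no overlap between the replicates. Apob and Foxa2 were not tested. Without FL-LSKCD201+ replicate 1, which stood apart, the 7 genes were still called, with 6.84 for Apoa1, 6.26 for Apoa2 and 1.20 for Apoe, and Trf was at 0.32. Both groups also enter comparisons with D5-LSKCD201+ above.

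Fetal liver replicate 1 was low in a part of the 10 genes. The mean of replicates 2 and 3 was 2.87 times replicate 1 for Apoa2, 1.98 times for Rbp4, 1.93 for Apoa1, 1.90 for Ttr, 1.42 for Afp, 1.27 for Apoe and 1.14 for Alb. For Trf, Apob and Foxa2 the ratio was 0.899, 0.915 and 0.898, and its median over all genes at 1 FPKM or more was 0.984. By this ratio, Alb varied less between the fetal liver libraries than Afp, Apoa1, Apoa2, Apoe, Ttr and Rbp4 did.

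The markers of liver cells and of other blood cells in FL-LSKCD201+ were read beside these values. Of 20 hepatoblast and hepatocyte markers, 18 were at 1 FPKM or more in all 3 FL-LSKCD201+ libraries, and the list summed to 304 to 328 FPKM. Ahsg (fetuin-A) was at 22.0 to 23.6 FPKM there and at most 0.0324 in BM-LSKCD201+, while Cps1 was listed at 0. In BM-LSKCD201+ 4 markers of the list reached 1 FPKM, and Krt18 (156 to 166 FPKM) made up most of its sum of 164 to 179 FPKM. Ptprc (CD45, the surface protein of blood cells) was at 38.4 to 52.1 FPKM in FL-LSKCD201+ and 64.3 to 71.6 in BM-LSKCD201+.

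The 9 erythroid markers matched summed to 22676 to 46535 FPKM in FL-LSKCD201+, with replicate 1 the lowest as for the 10 genes, and to 311 to 402 in BM-LSKCD201+. The 12 macrophage and monocyte markers summed to 770 to 804 FPKM in FL-LSKCD201+ and 464 to 501 in BM-LSKCD201+. In D5-LSKCD201+ and D5-LSKCD201- Ptprc was at 0.305 to 0.935 FPKM, so the defining marker of blood cells was near 0 in both. The LSK gate is meant to leave out mature red cells and macrophages. The part of these cell types in the levels of the 10 genes was not tested.

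**Figure D3:**
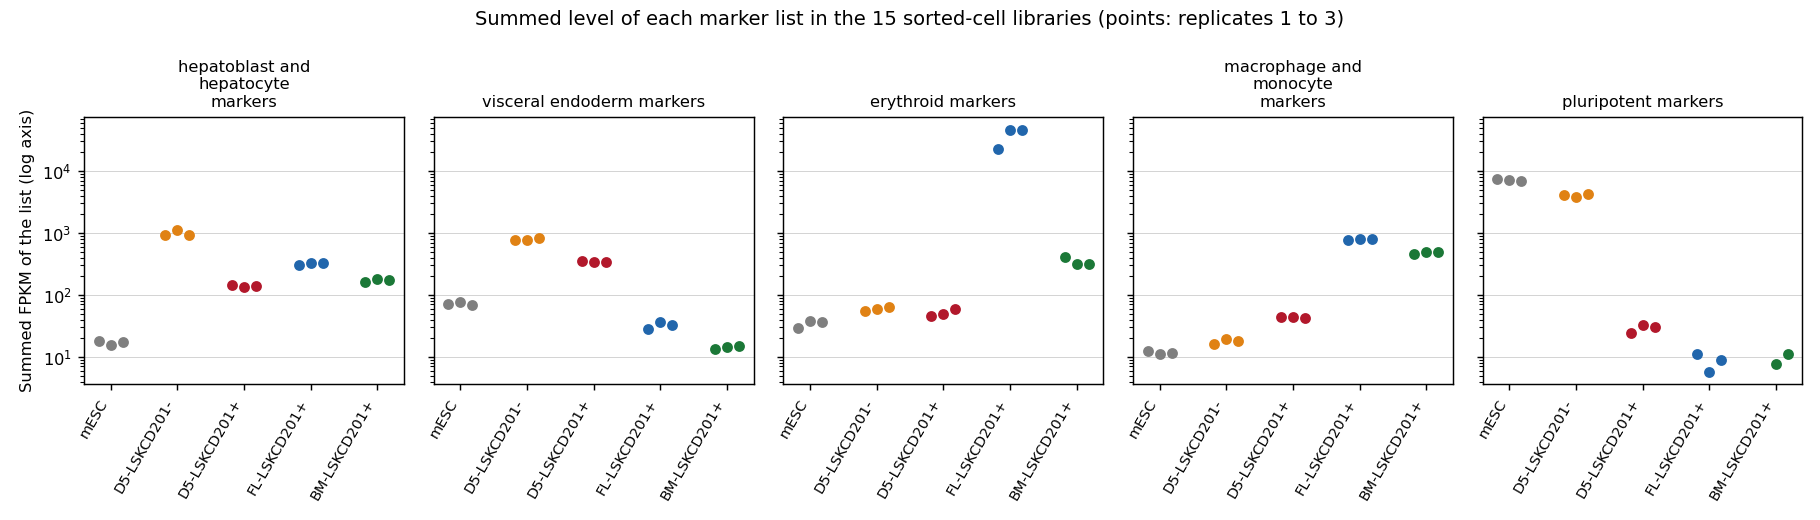
Summed FPKM, on a log axis, of 5 marker lists in the 15 sorted-cell libraries, with 1 point for each replicate. FL-LSKCD201+ is highest in erythroid and macrophage markers, and D5-LSKCD201- is highest in visceral endoderm markers and in the hepatoblast list, where Krt8 and Krt18 make up most of its sum. 1 BM-LSKCD201+ library with a pluripotent sum of 0 is not drawn.

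D5-LSKCD201- also carried markers of endoderm and of undifferentiated cells. Its 20 visceral endoderm markers summed to 764 to 834 FPKM, against 343 to 354 in D5-LSKCD201+, 69.7 to 76.2 in mESC, 28.3 to 36.2 in FL-LSKCD201+ and 13.6 to 15.1 in BM-LSKCD201+, and 16 of the 20 were at 1 FPKM or more. Slc2a2, a defining glucose transporter of this layer, was listed at 0 in all day 5 sorted libraries. Between both day 5 groups, 10 of 16 markers tested were lower in D5-LSKCD201+ and 1 higher, beside 13.9% and 10.8% of all genes, and of the 11 that passed in both groups 6 were lower and 1 higher. Cldn6 was at 179 to 214 FPKM and Cer1 at 108 to 129 in D5-LSKCD201-, while Dab2, the 1 higher in D5-LSKCD201+, was at 143 to 149 there and 44.0 to 47.4 in D5-LSKCD201-. The 8 pluripotent markers summed to 3749 to 4247 FPKM in D5-LSKCD201-, 6835 to 7400 in mESC and 24.5 to 32.8 in D5-LSKCD201+. Their part in the higher Foxa2, Rbp4, Apoa1 and Ttr of D5-LSKCD201- was not tested. Of 12 stromal and fibroblast markers tested between both day 5 groups, 4 were higher in D5-LSKCD201+ and 1 was lower. Among the higher ones, Lum passed only through D5-LSKCD201+ and had to differ. Of 10 parietal endoderm markers tested, 4 were higher (Sox7, Thbd, Sparc and Lamb1) and 4 lower, beside 10.8% and 13.9% of all genes. The part of such cells in the higher Trf of D5-LSKCD201+ was not tested.

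Foxa2 was read with a list of 21 other endoderm and liver transcription factors. In D5-LSKCD201- against mESC, 11 of 15 factors tested were higher and none lower (median log2 fold change 2.28, against 0.05 over all genes), beside 10.9% higher and 3.48% lower of all genes. Of the 10 that passed in both groups 7 were higher. Sox17 (5.96, SE 0.09) and Eomes (4.04, SE 0.11), factors of the early endoderm and mesendoderm, had the largest changes of the list. In D5-LSKCD201+ against D5-LSKCD201-, 8 of 15 were lower and 3 higher (median -1.01, against -0.12 over all genes), beside 13.9% and 10.8% of all genes, and of the 9 that passed in both groups 3 were lower and 2 higher. Mixl1 (-4.29, SE 0.14) and Eomes (-4.19, SE 0.12) fell and Sox7 (3.53, SE 0.07), a factor shared by endoderm and blood-forming endothelium, rose. Mixl1 passed the filter only through D5-LSKCD201- and had to differ.

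Not all endoderm factors went with Foxa2, and those below were chosen after their values were seen. Sox17 was at 115 to 128 FPKM in D5-LSKCD201+ and 89.8 to 105 in D5-LSKCD201-, and Gata4 at 34.6 to 36.9 and 15.2 to 41.5, so both groups held them. Foxa1, a relative of Foxa2, was at 4.62 to 10.4 FPKM in D5-LSKCD201- and at most 0.207 in D5-LSKCD201+. D5-LSKCD201- replicate 2, which stood apart, was the lowest of its group for Foxa1, Foxa2 and Gata4.

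Hnf4a, the liver factor that activates many apolipoprotein genes, was highest in bone marrow, at 10.3 to 11.3 FPKM, and was 2.40 to 3.60 in FL-LSKCD201+. The difference of FL-LSKCD201+ from BM-LSKCD201+ was -1.63 (SE 0.14, limma adjusted p 9.1e-05), opposite in sign to those of Afp, Alb and Apoa1. In that comparison 1 of 6 endoderm and liver factors tested was higher (Sox17, 2.44) and 2 lower (Cebpa, -2.34, and Hnf4a), beside 7.78% higher and 11.3% lower of all genes, with a median of -0.34 against -0.13. Sox17 passed the filter only through FL-LSKCD201+ and had to differ.

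**Figure D4:**
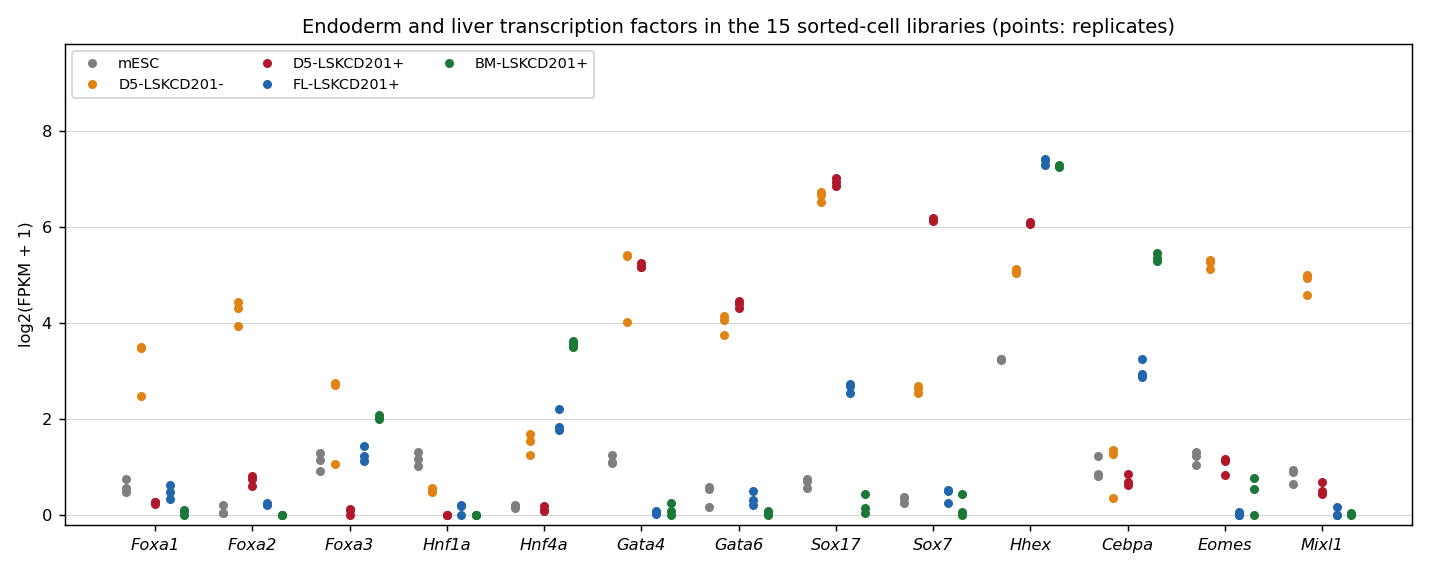
Levels of 13 endoderm and liver transcription factors, log2(FPKM + 1) on the vertical axis, in the 15 sorted-cell libraries, with 1 point for each replicate coloured by group. Foxa1, Foxa2, Eomes and Mixl1 are highest in D5-LSKCD201-, Sox17 and Gata4 are high in both day 5 groups, and Hnf4a and Cebpa are highest in BM-LSKCD201+.

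A list of 30 other secreted liver and yolk sac proteins was described in the same way. In FL-LSKCD201+ against BM-LSKCD201+, all 26 tested were higher (median 3.30, against -0.13 over all genes), beside 7.78% of all genes, but 23 of them passed the filter only through FL-LSKCD201+. Serpina6 (corticosteroid-binding globulin, 5.53, SE 0.10), Ambp (4.71, SE 0.11) and Apom (a lipoprotein that carries sphingosine phosphate, 4.64, SE 0.18) had the largest differences. Serpina6, Ambp and Apom were among those that passed only through FL-LSKCD201+ and had to differ. Igf2 (4.05, SE 0.28), Hp (3.82, SE 0.12) and Apoc1 (2.87, SE 0.29) passed in both groups. In D5-LSKCD201+ against FL-LSKCD201+, 24 of 27 were lower and 1 higher (median -3.24, against -0.16), beside 19.6% and 15.1% of all genes, and 22 passed through 1 group only. Igf2, a fetal growth factor, was the one that was higher (5.25, SE 0.12), at 1654 to 1699 FPKM in D5-LSKCD201+.

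Between both day 5 groups, 3 of 8 such genes were lower in D5-LSKCD201+ and 1 higher (median -0.59, against -0.12), beside 13.9% and 10.8% of all genes. Of the 6 that passed in both groups 2 were lower and 1 higher, and Apom, the other lower one, passed only through D5-LSKCD201- and had to differ. Spink1, a trypsin inhibitor found in visceral endoderm, fell by 4.62 (SE 0.14) from 110 to 160 FPKM in D5-LSKCD201-, and Apoc1 fell by 2.48 (SE 0.18). Igf2 was higher by 3.88 (SE 0.11). Ahsg, Fga and Serpina6 were under 1 FPKM in all libraries of both day 5 groups.

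The partners of the secreted proteins were counted from lists as well. Of 10 iron uptake genes tested between D5-LSKCD201+ and D5-LSKCD201-, 1 was higher and 2 were lower (median -0.25, against -0.12), a share near the 24.7% called over all genes. Tfrc, the receptor that takes up transferrin, fell by 2.16 (SE 0.12, limma adjusted p 4.0e-06), opposite to Trf, from 43.2 to 57.9 FPKM in D5-LSKCD201- to 10.4 to 11.2 in D5-LSKCD201+. Of 9 retinol and thyroxine genes tested, 2 were higher and 2 lower (10.8% and 13.9% of all genes). Of the 5 that passed in both groups, 1 was higher and 0 were lower. Stra6, the receptor of Rbp4 and chosen after its values were seen, fell by 1.23 (SE 0.17), passed through D5-LSKCD201- only, and was listed at 0 in FL-LSKCD201+ and BM-LSKCD201+.

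Of 17 lipoprotein assembly, receptor and lipase genes tested between the day 5 groups, 4 were higher and 4 lower (median -0.29, against -0.12), beside 10.8% and 13.9% of all genes, and of the 14 that passed in both groups 4 were higher and 2 lower. Lrpap1 (-1.62, SE 0.08), a chaperone of lipoprotein receptors, was among the lower ones. Mttp loads lipid onto Apob and was chosen after its values were seen. It was at 1.18 to 1.45 FPKM in D5-LSKCD201+ and 5.64 to 6.53 in BM-LSKCD201+, where Apob was at most 0.0141. Between D5-LSKCD201+ and D5-LSKCD201- Mttp differed by -0.78 (SE 0.10, limma adjusted p 0.000392), under the fold threshold.

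In total cells of day 5, the comparison of 3D+OP9 with 3D+0.1% gelatin asked whether stromal coculture changed these genes. None of the 6 genes tested was called by limma (0 also at an unadjusted p under 0.05), where 2.62% of 12958 genes were called, 2.11% higher and 0.509% lower. Of the 6, only Apob had groups that did not overlap, which held for 28.7% of all genes. Log2 fold changes were -0.80 for Apob (SE 0.51), -0.72 for Apoa1 (SE 0.49), -0.53 for Ttr (SE 0.80), -0.45 for Rbp4 (SE 0.38), 0.32 for Foxa2 (SE 0.46) and 0.15 for Apoe (SE 0.13), with limma adjusted p from 0.403 to 0.747. With single replicates left out, Foxa2 ranged from 0.024 to 0.90, Apoe from 0.020 to 0.30 and, where tested, Apoa1 from -1.18 to -0.67, and none was called. Apoa1 and Apob passed the filter only through 3D+0.1% gelatin. Afp, Alb, Apoa2 and Trf were too low to be tested.

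A single library set most of this pattern. 3D+0.1% gelatin replicate 3 had 11.78 FPKM of Ttr, while the other 5 libraries had 1.35, 1.4 and 0.48 (3D+OP9 replicates 1 to 3) and 0.48 and 0.34 (3D+0.1% gelatin replicates 1 and 2). It had 4.41 FPKM of Apob against at most 0.36 in the others, 4.69 of Apoa1 against at most 0.86, 6.93 of Rbp4 against at most 2.41 and 1.63 of Afp against at most 0.1. For 5 of the 10 genes it was therefore the highest library, by 2.88 times (Rbp4) to 16.3 times (Afp) the next. Without it, the difference of Ttr turned from -0.53 to 0.53 and that of Rbp4 from -0.45 to 0.031, and Apoa1 and Apob did not pass the filter.

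Foxa2 did not go with these genes in that library. It was at 3.81, 2.24 and 4.07 FPKM in 3D+0.1% gelatin and at 6.9, 7.1 and 1.41 in 3D+OP9, so the groups overlapped and 3D+OP9 replicate 3 was the lowest. Visceral endoderm markers summed to 298 FPKM in 3D+0.1% gelatin replicate 3, with 19 of 20 at 1 FPKM or more, and the lowest sum of that group was 157 with 13 of 20. 3D+OP9 summed to 132 to 170. The part of visceral endoderm cells in these levels was not tested.

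Alb was listed at 0 in all 6 coculture libraries and Trf was at 0.25 to 1.07 FPKM. Apoe was again the most abundant, at 338.73, 333.48 and 354.23 FPKM in 3D+OP9 and 379.16, 256.17 and 300.1 in 3D+0.1% gelatin, which overlapped. Apoa2 was at 0, 0.12 and 0.97 FPKM in 3D+OP9 and at 0.22, 0.07 and 0.65 in 3D+0.1% gelatin. These levels come from a table normalized apart from that of the sorted cells, and no test crossed both.

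**Figure D5:**
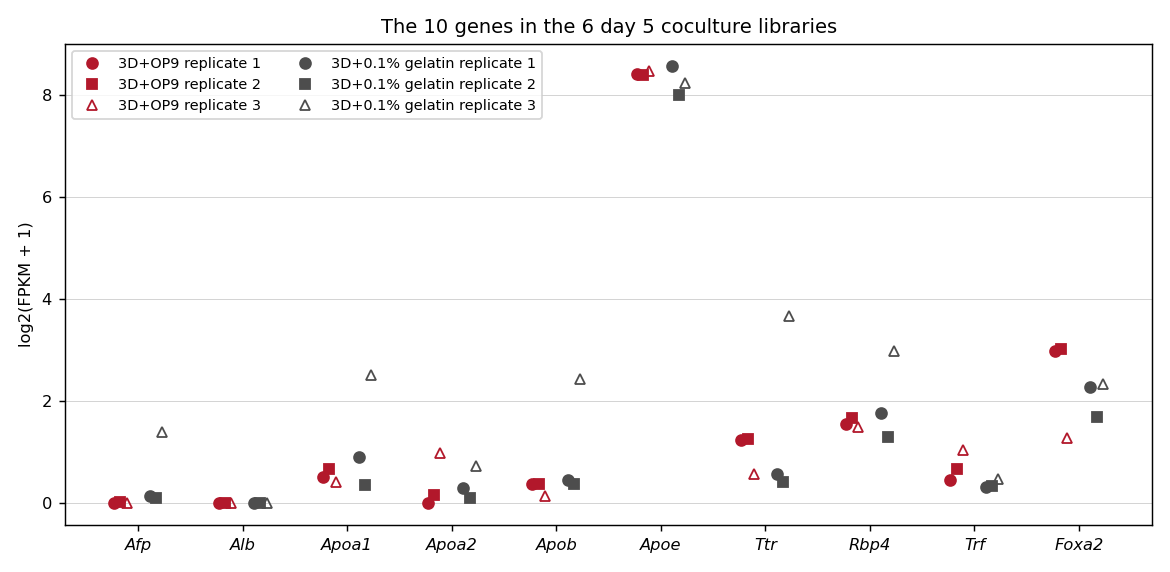
Level of each of the 10 genes, log2(FPKM + 1) on the vertical axis, in the 6 coculture libraries. Red symbols are 3D+OP9 and grey symbols 3D+0.1% gelatin, with a shape for each replicate. The open grey triangle, 3D+0.1% gelatin replicate 3, is above all other libraries for Afp, Apoa1, Apob, Ttr and Rbp4.

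The genes whose levels followed each member most closely over the 15 sorted libraries were found by Pearson's r on log2(FPKM + 1), searching genes outside the 10. These libraries come in 5 groups, so that r mostly reflects group means, and no p is given. Alb was followed by 6030468B19Rik (0.9997), Redrum (0.9995) and the liver gene Serpina6 (0.9994), all high in fetal liver alone. Afp, which was also present in bone marrow, was followed by Ly86 (0.9967), the globin Hbb-bs (0.9966) and Clec4a2 (0.9952), genes of blood cells. Ttr was followed by Smim1 (0.9937) and Vtn (0.9929), and Apoa1 by Smim1 (0.9891) and Apom (0.9876).

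Foxa2 was followed by Hkdc1 (0.9981), Rgs5 and Gm45623, Trf by B4galt4 (0.9921) and Tomm40l (0.9861), and Apoa2 by Rgn (0.9886), Stfa2l1 and Stfa3. Rbp4 had no gene as close, with Maob (0.9481) first, and Apoe was followed by Trappc1 (0.9811). Apob was too low for this measure. Among the 10 genes themselves, the closest pair was Apoa1 and Ttr (0.9948), closer than either was to any gene outside, followed by Alb and Apoa2 (0.9764) and Apoa2 and Ttr (0.9754).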

How the data were processed

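The 21 libraries were paired-end RNA-seq with reads of 150 bases. The authors deposited FPKM per gene in a coculture table (6 libraries, 22899 genes, 3578 of them blank in all libraries) and a sorted-cell table (15 libraries, 27968 genes), normalized separately, so tests stayed within a table. The submitters' processing notes name HISAT2 2.0.5, StringTie 1.3.3 and Cuffdiff 1.3.0. They list both GRCm38 and mm9 as genome builds and do not say which table used which. Depth per library is unknown, since FPKM holds no counts.

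Groups came from the labels. The 10 genes were found by symbol, and these members and the other gene lists were chosen with earlier results of these data known. The 7 comparisons were tested with limma 3.58.1 (trend, two-sided) in R 4.3.3 on log2(FPKM + 1), for genes whose mean over the compared libraries reached 0.5 FPKM. P-values were Benjamini-Hochberg adjusted over all genes tested. Of each list, up to 3 called genes with the largest absolute log2 fold change were named, and for each member averaging 0.5 FPKM or more the 3 most correlated genes. Further genes, named for their known role, were chosen after their values were seen. Some genes that the rule named are not reported here. Scripts ran in Python 3.11.15 with pandas 2.3.3 and numpy 2.4.6, and the test was tested on simulated data. Promoter sequences came from RefSeq (GRCm38.p6) and positions from GENCODE M21.

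The alternatives were quantile normalization, a pseudocount of 0.1, a prior variance without the trend, a stricter filter of 1 FPKM, no filter, a replicate block, the adjusted p alone, each replicate left out and 1 fit over all 5 sorted groups. Replicate numbers are shared between groups, but the labels do not say that they mark a shared batch. Between FL-LSKCD201+ and BM-LSKCD201+ the deviations of same-numbered libraries correlated at 0.242, 0.202 and 0.159, every pair above 0.1, a pairing that comes from the data and not from the labels. The values reported are from the fit without the block, and the block was an alternative.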

Additional observations from a re-analysis of the deposited data

How the results depend on the processing

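Most results for the 10 genes kept their direction and their side of the threshold. Of the alternative values for single genes, 551 did so, 6 passed the threshold only under the alternative, 4 lost it and 5 reversed. The reversed values were all under the fold threshold and not called in the reported fit. For 3D+OP9 against 3D+0.1% gelatin without 3D+0.1% gelatin replicate 3, Ttr was at 0.53 and Rbp4 at 0.031, and over all replicates left out they ranged from -1.10 to 0.53 and from -0.81 to 0.031. For D5-LSKCD201+ against D5-LSKCD201-, Apoa2 was at 0.28 after quantile normalization, 0.23 without D5-LSKCD201+ replicate 2 and 0.04 without D5-LSKCD201- replicate 3, and ranged from -0.21 to 0.23 over the replicates left out. The cause was not tested.

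With the adjusted p alone, which by construction drops the fold threshold, the genes called over the whole table rose from 339 to 891 (3D+OP9 against 3D+0.1% gelatin), from 3379 to 9349 (D5-LSKCD201+ against D5-LSKCD201-), from 5056 to 11496 (D5-LSKCD201+ against mESC), from 1949 to 7418 (D5-LSKCD201- against mESC), from 4727 to 9823 (D5-LSKCD201+ against FL-LSKCD201+), from 6159 to 11486 (D5-LSKCD201+ against BM-LSKCD201+) and from 2581 to 7446 (FL-LSKCD201+ against BM-LSKCD201+). Of the 10 genes, 4 in place of 1 were then called in D5-LSKCD201+ against mESC and 7 in place of 4 in D5-LSKCD201- against mESC. A pseudocount of 0.1 gave 531 genes in the coculture and 3 of the 10 genes in D5-LSKCD201+ against mESC. Leaving out each replicate gave 209 to 444 genes in the coculture, the lowest without 3D+0.1% gelatin replicate 2. Quantile normalization moved the median over all genes from -0.23 to -0.02 in D5-LSKCD201+ against BM-LSKCD201+. With the replicate number as a block, the calls of the 10 genes numbered the same in all 7 comparisons, and 2607 genes in place of 2581 were called in the comparison of FL-LSKCD201+ with BM-LSKCD201+, 379 in place of 339 in the coculture. FPKM without counts sets no lower limit of detection, so values under 1 FPKM are uncertain.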
